A study of Saccharomyces cerevisiae with 7 samples.

Results

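The change in mRNA levels between 2 h and 4 h of a meiotic time course was measured in budding yeast (Saccharomyces cerevisiae) that lacked the S-phase cyclins Clb5 and Clb6. For each open reading frame (ORF), the 2 h value was subtracted from the 4 h value, and the 3 h value served to show whether the change was gradual. Of the 6141 ORFs on the array, 5726 had values at 2, 3 and 4 h, and 415 were left out for a missing value. The difference was 1 log2 unit or more, a 2-fold rise, for 202 ORFs and -1 or less for 205.

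Each of the 7 libraries (1, 2, 3, 4, 5, 6 and 8 h by their titles) was a single culture sample, so no time point had a replicate. All libraries carried the Clb5Δ Clb6Δ double deletion, no wild type or single mutant was analysed here, and neither the strain background nor the way meiosis was induced was given in the sources used here. The library titled 8 h bore a source name of 6 h, so its time is uncertain. A value is the log2 of the sample's ratio to a mix of meiotic mRNA, divided by the same ratio at 0 h, per the series' design text. The mix and the 0 h sample cancel in a difference between libraries. In such bulk samples a lower value can mean fewer cells with a transcript or less of it in each cell, and these cannot be told apart.

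Meiosis in yeast is driven by successive waves of transcription. Starved diploids first switch on Ime1 and the kinase Ime2, and with them the early genes, which replicate the chromosomes and then pair, cut and recombine them. The transcription factor Ndt80 then activates the middle genes, which drive the nuclear divisions and wrap each nucleus in a prospore membrane and a spore wall. Clb5 and Clb6 are the cyclins that normally start premeiotic DNA replication.

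The libraries at 2, 3 and 4 h were alike in centre but not in spread. Their medians lay between 0.014 and 0.039, while the standard deviation over ORFs was 1.03 at 2 h, 1.09 at 3 h and 1.26 at 4 h. Where this widening was removed, by bringing the libraries to the same median absolute deviation or by quantile normalization, small differences shrank or turned round, as given with the groups below. Across ORFs the correlation was 0.935 between 2 h and 3 h, 0.960 between 3 h and 4 h and 0.870 between 2 h and 4 h, in libraries that share the 0 h sample and the mix.

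A change was tested as the slope of a line through the 3 libraries (limma, p-values adjusted over 5726 ORFs by Benjamini-Hochberg), and "rose" or "fell" is used below only for a difference of at least 1 in size with an adjusted p under 0.05. This p sets the slope against the scatter of single successive samples around a line, not against the spread between cultures. The median standard error (SE) of a difference was 0.193. The difference was 1 or more in 3.53% of ORFs and -1 or less in 3.58%, and limma called 184 ORFs (3.21%) as risen and 188 (3.28%) as fallen. Bringing the libraries to one distribution by quantile normalization gave 126 and 202, so that the share of rises among all ORFs past the threshold was 38.4% there and 49.6% in the values as deposited.

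The rises were larger than the falls. A difference of 2 or more was found for 55 ORFs, of 3 or more for 30 and of 4 or more for 15, whereas -2 or less was found for 23 and no ORF reached -3. The extremes were SPO74, a component of the meiotic spindle pole plaque, at 5.58, and HIS4, a histidine synthesis enzyme, at -2.70.

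The changes were gradual in most ORFs. The 3 h value lay between the 2 h and 4 h values for 192 of the 202 higher ORFs (95.0%) and 198 of the 205 lower ORFs (96.6%), beside 57.3% of all ORFs, and a large difference favours this order by itself. The pace within the interval differed between the higher and lower ORFs. The lower ORFs had covered a median of 58.7% of their change by 3 h, and 151 of the 205 took the larger step between 2 h and 3 h. The higher ORFs had covered a median of 46.1%, and 111 of the 202 took the larger step between 3 h and 4 h.

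**Figure D1:**
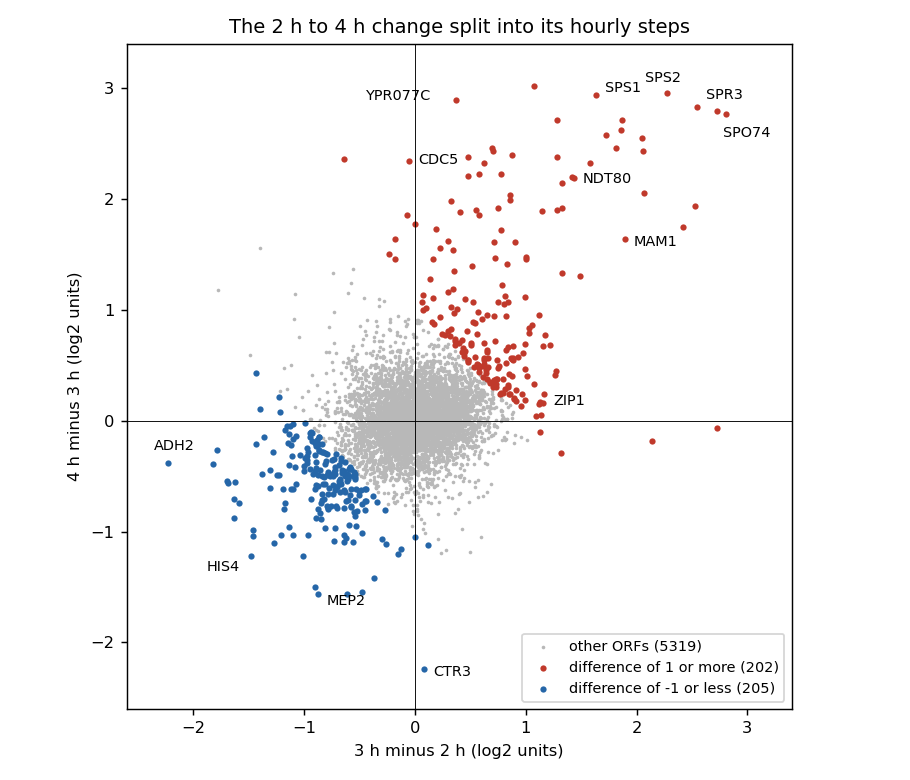
Change from 2 h to 3 h (horizontal, log2 units) against change from 3 h to 4 h (vertical, log2 units), 1 point per ORF, with the 202 higher ORFs in red and the 205 lower ORFs in blue. ADH2 sits far left with almost all of its fall in the first hour, YPR077C and CDC5 sit high near the vertical axis with nearly all of their change in the second, and SPO74 and SPR3 took steps of similar size in both.

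The label of an early meiotic build-up was checked against genes of known timing. Genes of the early recombination programme were already well above the 0 h level at 2 h and moved little afterwards, whereas most named genes with the largest differences belong to spore formation. Values were available for 34 genes for double-strand breaks, the chromosome axis and synaptonemal complex, and strand exchange. Of these, 26 stood at 1 or more at 2 h and 4 rose, beside 742 and 184 of all 5726 ORFs. The median of the 34 genes was 1.54, 2.23, 2.61, 2.95, 2.52, 2.22 and 1.71 in the 1, 2, 3, 4, 5, 6 and 8 h libraries. Of the 31 of these genes with all 7 values, 23 were highest at 4 h, beside 705 of 5349 among all ORFs. Of 44 genes of the prospore membrane, spindle pole plaque and spore wall, 13 stood at 1 or more at 2 h, 28 rose and 21 differed by 2 or more. Their median was 0.57, 0.32, 1.38, 2.93, 4.53, 5.41 and 5.67 in the same order. By these medians the early genes were near the end of their climb and the middle genes at its start, and the larger differences belonged to the middle genes. The lists were chosen with earlier results of these data known, so their direction is a description.

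**Figure D2:**
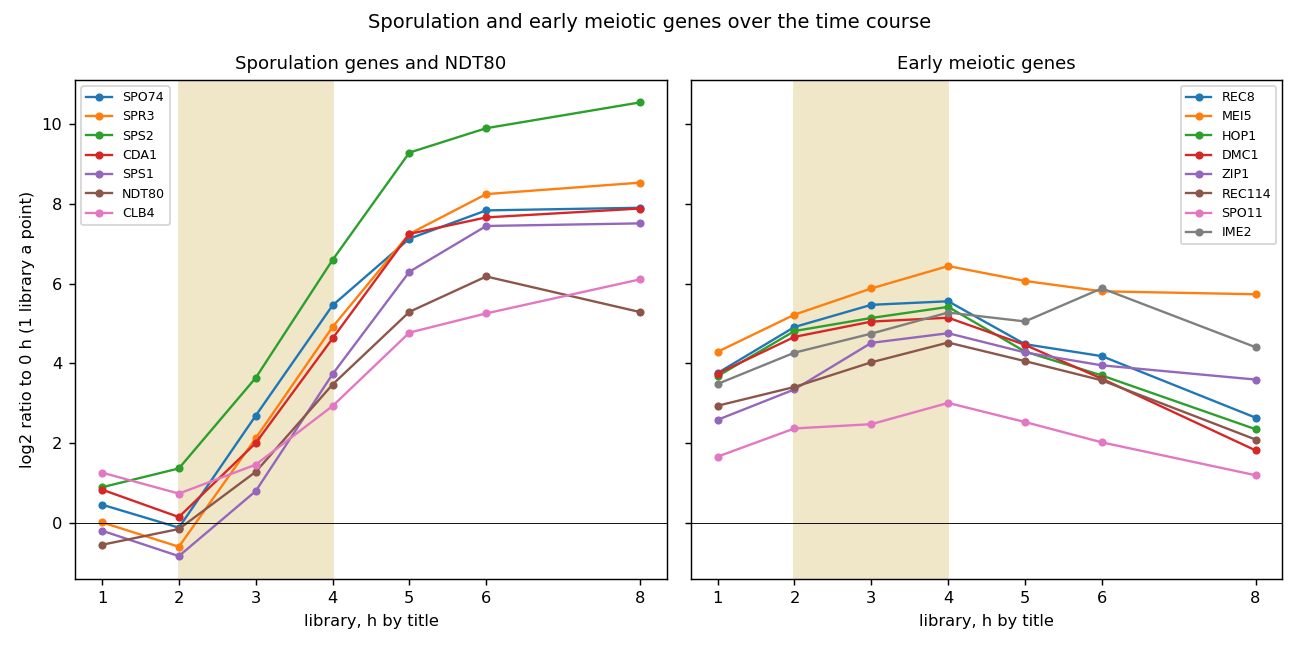
Log2 ratio to 0 h (vertical) in each of the 7 libraries (horizontal, h by title), 1 library a point, with the interval from 2 h to 4 h shaded. Sporulation genes and NDT80 (left) lay between -0.84 and 1.36 at 2 h and were higher at 5 h than at 4 h, and the early genes (right) lay between 2.37 and 5.22 at 2 h and all but IME2 peaked at 4 h.

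Among the regulators of entry, 2 of 16 measured genes rose. IME2, the meiosis-specific kinase, read 4.27, 4.75 and 5.27 at 2, 3 and 4 h, a difference of 1.01 that lay just inside the threshold (adjusted p = 0.0248, limma) and was -0.08 with the libraries at one median absolute deviation and -0.10 with quantile normalization. SLZ1 read 3.62, 4.58 and 4.83 at 2, 3 and 4 h, a difference of 1.20 (adjusted p = 0.0336, limma) that was 0.24 and 0.10 with the same scalings and not called. IME1, the master regulator upstream of IME2, stayed between 1.29 and 1.45 at 2, 3 and 4 h, and its difference of 0.17 did not pass the test (adjusted p = 0.59, limma). RIM4, which encodes an RNA-binding protein that holds back translation of middle genes, was 3.09 at 4 h against 2.35 at 2 h (adjusted p = 0.054, limma). RME1, a repressor of IME1, had no value.

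NDT80 crossed the 0 h level inside the interval. It read -0.16 at 2 h, 1.28 at 3 h and 3.47 at 4 h, so that the difference was 3.63 ± 0.25 (SE; adjusted p = 0.00116, limma). The climb went on outside the interval, with 5.29 at 5 h and 6.18 at 6 h. SUM1, which encodes the repressor that occupies middle promoters before Ndt80 does, read 0.45, 0.24 and 0.32 at 2, 3 and 4 h and did not pass the test (adjusted p = 0.698, limma).

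Many genes that build the prospore membrane and the meiotic spindle plaque on which it grows rose. Of 22 measured members, 13 rose, none fell, 3 had differences below 0 (SPO1, ADY2 and SPO75, down to -0.29) and the median difference was 1.84, beside a median of 0.038 over all ORFs. SPO74 read -0.13, 2.69 and 5.45 at 2, 3 and 4 h, a difference of 5.58 ± 0.18 (SE; adjusted p = 9.89e-05, limma). SPR3, a sporulation septin, read -0.60, 2.12 and 4.91 at 2, 3 and 4 h, and its partner septin SPR28 read 1.64, 3.46 and 5.92. The smallest hourly gain of either septin was 1.82. SSP1, which shapes the leading edge of the membrane, read -0.64, 1.90 and 4.73 at 2, 3 and 4 h. SPO19, SPO20 and SPO77 differed by 4.30, 3.25 and 3.16, ADY3 and DON1 by 1.91 and 2.07, and SMA2, ADY4, SMA1 and GIP1 by 1.52 to 2.33. The same 13-member count past the threshold was reached with libraries brought to one median absolute deviation and with quantile normalization. With quantile normalization 1 member was also at -1 or less.

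Spore wall genes and the kinases that control wall assembly were the list with the highest median, 2.51. Of 22 measured members, 15 rose and none fell. With equal median absolute deviations 16 were past 1 and 1 was at -1 or less, and with quantile normalization 15 and 1. SPS2, a wall protein, read 1.36, 3.64 and 6.60 at 2, 3 and 4 h, which was the highest 4 h value among the members. The kinase gene SPS1, its neighbour on the chromosome, read -0.84, 0.79 and 3.73 at 2, 3 and 4 h. CDA1 and CDA2, the adjacent genes for the chitin deacetylases that make the chitosan layer, were 4.62 and 3.02 at 4 h, against 0.14 and 0.01 at 2 h. GAS4 and GAS2, glucan-remodelling enzymes of the wall, differed by 3.62 and 2.50, and SPR2 and LOH1 by 4.10 and 4.00. SMK1, a mitogen-activated protein kinase of wall assembly, was 1.43 at 4 h against -0.39 at 2 h (adjusted p = 0.00572, limma). CRR1 differed by 1.78 but stood at 2.50 at both 2 h and 3 h and missed the test (adjusted p = 0.0528, limma).

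Not all wall genes rose in the interval. DIT1, needed for the dityrosine of the outermost layer, was 0.50 at 4 h against 0.05 at 2 h, and of the 7 libraries only the one titled 8 h had it clearly higher, at 3.01. SPS100, a late wall gene, was -0.68 at 4 h against -0.57 at 2 h. GSC2, a glucan synthase subunit, was 0.09 at 4 h against 0.52 at 2 h, and OSW1, already far above the 0 h level, was 2.88 at 4 h against 3.36 at 2 h. None of these passed the test (adjusted p between 0.187 and 0.726, limma).

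Among the genes of the nuclear divisions, 5 of 16 rose and none fell. PES4, which encodes an RNA-binding protein of the middle programme, read -0.32, 1.55 and 4.27 at 2, 3 and 4 h, a difference of 4.59 (adjusted p = 0.000508, limma). CLB4, a B-type cyclin of the meiotic divisions, read 0.73, 1.46 and 2.93 at 2, 3 and 4 h and rose by 2.20. ACM1, CDC14 and AMA1, all regulators or partners of the anaphase-promoting complex pathway and mitotic exit, rose by 1.29, 1.15 and 1.15. CDC5, the polo kinase, read 1.19, 1.13 and 3.48 at 2, 3 and 4 h, so all of its change came in the second hour and the line test was missed (adjusted p = 0.054, limma). CLB1 was 0.76 at 4 h against 0.60 at 2 h, with -0.80 at 3 h between them in time, and CLB3 was 0.88 at 4 h against 0.73 at 2 h. At 5 h they read 2.87 and 2.59. The count past the threshold was 3 of the 16, in place of 6, with equal median absolute deviations or with quantile normalization.

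The deleted genes were not called. CLB5 read 0.30, -0.08 and -0.51 and CLB6 read -0.53, -0.40 and -0.03 at 2, 3 and 4 h, differences of -0.81 and 0.49. A ratio of 2 samples from the same deletion strain says nothing of whether a transcript was present, so these values do not check the genotype.

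Genes of the first meiotic division's special chromosome attachment rose in 3 of 4 measured cases. MAM1, the meiosis-specific member of the monopolin complex, read 1.31, 3.20 and 4.84 at 2, 3 and 4 h, a difference of 3.53 ± 0.19 (SE; adjusted p = 0.000469, limma). SPO13, which protects sister cohesion at meiosis I, was 5.57 at 4 h against 4.39 at 2 h, and CSM1, another monopolin member, was 1.39 at 4 h against 0.36 at 2 h. LRS4 had no value. With the libraries at one median absolute deviation 1 of the 4 was past 1, and likewise with quantile normalization.

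Kinetochore genes moved little as a group, with 2 of 23 risen and a median difference of 0.13. NDC80, an outer kinetochore subunit whose protein is removed and remade in meiosis, was 3.24 at 4 h against 2.07 at 2 h, and OKP1 was 1.32 at 4 h against 0.25 at 2 h. Among tubulins, motors and spindle pole genes, 5 of 23 rose, namely KAR3, TUB2, SPC42, CIK1 and SPC29, by 1.05 to 1.34. None of the spindle genes or kinetochore genes was past 1 with the other scalings by median absolute deviation or quantiles.

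Recombination genes rose singly. Of 9 measured genes for double-strand break formation, 1 rose, REC114, which read 3.41, 4.03 and 4.52 at 2, 3 and 4 h (difference 1.12, adjusted p = 0.0188, limma). With equal median absolute deviations or with quantile normalization no break gene was past 1. SPO11, the enzyme that cuts the DNA, was 3.01 at 4 h against 2.37 at 2 h and did not pass (adjusted p = 0.0979, limma). MRE11 and XRS2 had no values. Of 14 axis and synaptonemal complex genes, 2 rose. ZIP1, the central filament of the synaptonemal complex, read 3.35, 4.51 and 4.76 at 2, 3 and 4 h, with most of its gain in the first hour (difference 1.41, adjusted p = 0.0315, limma). MSH5, a crossover factor, read 2.29, 3.15 and 3.39 at 2, 3 and 4 h. With either of those scalings 1 of the 14 axis genes was past 1, and with equal median absolute deviations 1 was at -1 or less. HOP1 and the meiotic cohesin REC8 stood at 5.42 and 5.56 at 4 h, against 4.81 and 4.91 at 2 h, and neither passed the test (adjusted p = 0.0854 and 0.101, limma).

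Of 11 strand exchange genes, MEI5, a partner of the meiotic recombinase Dmc1, rose to 6.44 at 4 h against 5.22 at 2 h (adjusted p = 0.0141, limma), a difference of 1.22 that was -0.11 with equal median absolute deviations and -0.15 with quantile normalization. DMC1 itself was 5.14 at 4 h against 4.66 at 2 h (adjusted p = 0.153, limma). All 9 break genes and all 14 axis genes had positive differences, but this direction depended on scaling. The median difference was 0.40 for break genes, 0.65 for axis genes and 0.31 for strand exchange genes, and with quantile normalization it was -0.11, -0.04 and -0.14. Bringing the libraries to one median absolute deviation gave 0.03, 0.05 and -0.11.

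Among 15 crossover and mismatch repair genes, EXO1, an exonuclease of crossover formation, was the only one called, at 3.24 at 4 h against 1.69 at 2 h. It read 4.84 at 6 h. Its difference of 1.55 was 0.99 with equal median absolute deviations and 0.80 with quantile normalization, and not called. Of 13 cohesin genes, SGO1, which guards centromeric cohesin, rose by 1.59 and PDS1, the securin that holds back separase, by 1.12. PDS1 was at 0.65 and 0.54 under those scalings and not called, and the cohesin list's median of 0.53 was -0.05 and -0.04. The bouquet genes, with 4 measured, had none called and a median difference of 0.45 that was below 0 with the equal spread (-0.23) or quantile (-0.38) scaling.

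Genes of DNA replication were nearly flat. Of 48 measured, 1 rose, DBF4, the regulatory subunit of the Cdc7 kinase that fires origins, at 2.30 at 4 h against 1.27 at 2 h (adjusted p = 0.0286, limma). CDC7 differed by 0.94, short of the threshold. POL1, the polymerase alpha catalytic subunit, was 1.75 at 4 h against 1.31 at 2 h. RNR1, which makes deoxynucleotides, was 1.72 at 4 h against 1.42 at 2 h after 1.95 at 3 h. The median difference was 0.27 over the replication genes, and it was 0.01 with equal median absolute deviations and 0.02 with quantile normalization, where DBF4 was at 0.62 and 0.57 and not called. None of 10 nucleotide supply genes was called. CDC28, the cyclin-dependent kinase itself, was the only one of 15 G1 cyclin and regulator genes called, at 2.38 at 4 h against 1.25 at 2 h, and its difference of 1.13 was 0.72 and 0.65 with those scalings and not called.

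Histone genes formed a compact group, with 8 of 10 risen and all 10 above 0. HHT2 and HHF2, a divergent pair for histones H3 and H4, were 3.46 and 3.33 at 4 h, against 1.87 and 1.91 at 2 h. HTB1 and HTA1, the divergent pair for H2B and H2A, were 4.15 and 3.10 at 4 h, against 2.88 and 1.91 at 2 h. HTZ1, the H2A variant that is not tied to S phase, was 1.28 at 4 h against 0.25 at 2 h. The 8 differences lay between 1.03 and 1.59. The copies of each core histone gene are close in sequence, so an array probe may read both copies. The median difference was 1.23, and it was 0.77 with equal median absolute deviations and 0.66 with quantile normalization, where 1 histone gene was past 1.

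Proteasome and chaperone genes rose in small numbers. Of 32 proteasome genes, 30 had positive differences and 4 rose, namely RPN7, RPN5, RPT1 and PRE9, by 1.01 to 1.29, with a median over the list of 0.55. Of 25 chaperone genes, HSP82, HSC82, HSP42 and SIS1 rose by 1.04 to 1.43. HSP82 read 1.82, 2.70 and 3.25 at 2, 3 and 4 h and 1.05 in the library titled 8 h. No proteasome gene and 2 chaperone genes were past 1 under either of the scalings that equalise spread.

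**Figure D3:**
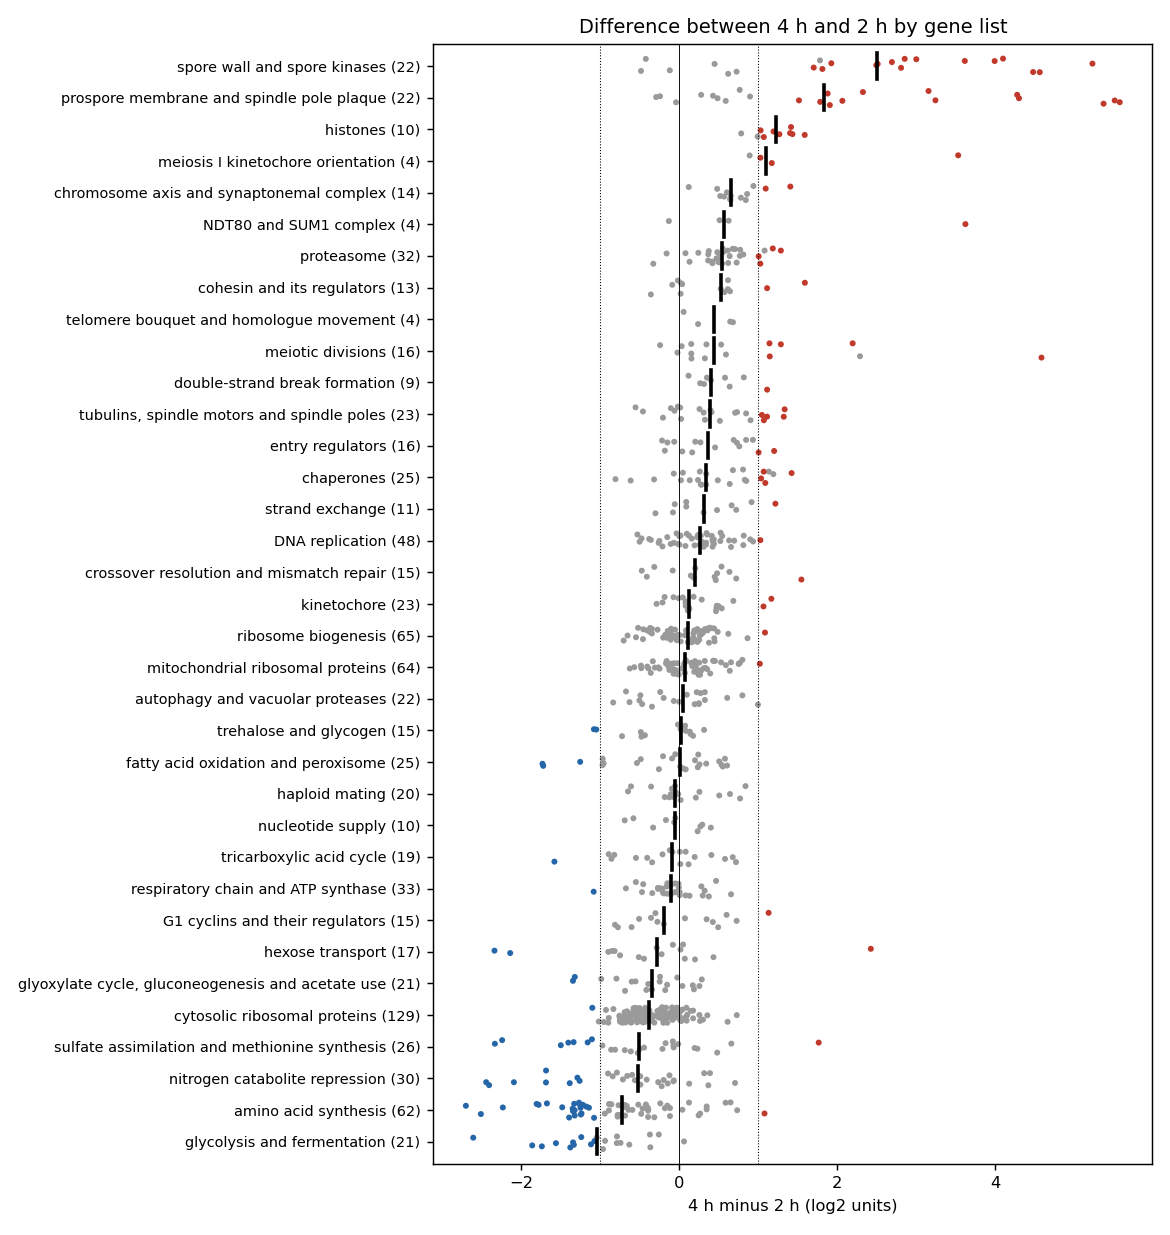
The 4 h minus 2 h difference (horizontal, log2 units) of every measured member of 35 gene lists, 1 point per gene, with the number measured in brackets, the list's median as a black bar, risen genes in red and fallen genes in blue. Spore wall genes lie furthest right with a median of 2.51 and glycolysis furthest left with -1.04, a place it loses to amino acid synthesis when spread is equalised. The median of all ORFs was 0.038. Some lists centre near it, such as autophagy at 0.05, and others lie off it on either side, such as the proteasome at 0.55 and sulfur genes at -0.51.

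Amino acid synthesis had the most fallen members, 22 of 62, with 1 risen and a median difference of -0.72. HIS4 read -0.50, -1.97 and -3.20 at 2, 3 and 4 h, a difference of -2.70 ± 0.19 (SE; adjusted p = 0.00118, limma). ARG4 and ARG1, the last enzymes of arginine synthesis, were 0.34 and -0.72 at 4 h, against 2.57 and 1.08 at 2 h. The falls covered several branches, with LEU4 at -1.67, ARO8 at -1.78, TRP5 at -1.48, LYS1 at -1.24, ASN1 at -1.27 and ILV3 at -1.32. GCN4, the activator of these genes, was -0.83 at 4 h against 0.34 at 2 h (adjusted p = 0.0183, limma).

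The branched-chain aminotransferases moved apart. BAT1, the mitochondrial enzyme, fell to -0.71 at 4 h against 0.36 at 2 h, and BAT2, the cytosolic one, rose to 0.24 at 4 h against -0.85 at 2 h (adjusted p = 0.0336 and 0.0255, limma). In the 5 h library BAT1 read -1.53 and BAT2 1.01. The 22 falls past -1 were 20 with equal median absolute deviations and 22 with quantile normalization.

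Methionine and sulfur genes fell in 7 of 26 cases. MET17, which incorporates sulfide, read 0.70, -0.89 and -1.63 at 2, 3 and 4 h. MET6, methionine synthase, read 1.19, -0.01 and -1.05 at 2, 3 and 4 h. SAM1 and SAM2, the S-adenosylmethionine synthetases, fell by 1.50 and 1.40. MUP1, the high-affinity methionine permease, went the other way, at -0.60 at 4 h against -2.37 at 2 h (adjusted p = 0.00505, limma). It stayed below its 0 h level at 5 h, at -0.24.

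Genes under nitrogen catabolite repression, which are used to take up and break down poor nitrogen sources, fell in 8 of 30 measured cases and rose in none. The list's median was 1.07, 0.61, 0.59 and 0.46 at 1, 2, 3 and 4 h, and the members that fell most had stood far higher. MEP2, an ammonium permease, read 6.92, 5.56, 4.68, 3.12 and 2.22 at 1, 2, 3, 4 and 5 h. DAL5, an allantoate permease, read 4.38, 3.48 and 1.98 at 2, 3 and 4 h. GAP1, the general amino acid permease, was 1.68 at 4 h against 3.36 at 2 h, and DAL3 was 1.37 at 4 h against 3.06 at 2 h. DAL4, the allantoin permease, dipped to 1.10 at 4 h against 3.19 at 2 h and was back at 3.45 in the library titled 8 h. The count past -1 was 10 with equal median absolute deviations and 11 with quantile normalization.

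**Figure D4:**
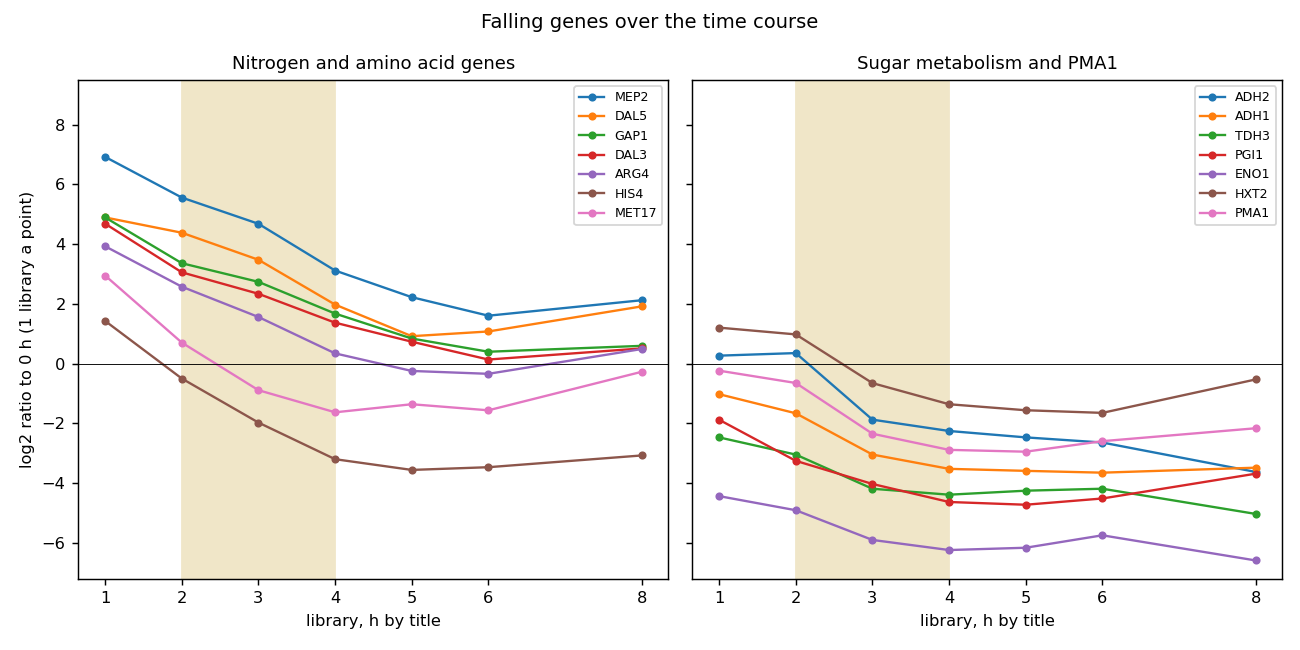
Log2 ratio to 0 h (vertical) in each of the 7 libraries (horizontal, h by title), 1 library a point, with the interval from 2 h to 4 h shaded. Nitrogen and arginine genes (left) were above the 0 h level at 1 h and came down through the interval, and most sugar metabolism genes (right) were below it at 2 h and flattened after 4 h.

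Glycolysis and fermentation had a median difference of -1.04, which was -0.20 with equal median absolute deviations and -0.42 with quantile normalization, with 10 of 21 measured genes fallen and 20 below 0. ADH2, the ethanol-consuming alcohol dehydrogenase, read 0.35, -1.88 and -2.25 at 2, 3 and 4 h, so most of its fall came in the first hour (adjusted p = 0.0221, limma). ADH1, the ethanol-making one, was -3.52 at 4 h against -1.66 at 2 h. TDH1, TDH2 and TDH3, the glyceraldehyde-phosphate dehydrogenases, fell by 1.74, 1.56 and 1.34, and PGI1, TPI1, ENO1, ENO2 and GLK1 by 1.07 to 1.38. The TDH, ENO and ADH genes are close copies that a probe may not separate. GPM1 was -4.66 at 4 h against -3.62 at both 2 h and 3 h and missed the test (adjusted p = 0.0735, limma). FBA1 lacked a 3 h value. Most of these genes lay far below 0, where rescaling the spread acts most, and the count past -1 was 2 with equal median absolute deviations and 3 with quantile normalization, in place of 11.

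Other carbon pathways fell in few members. FBP1, the gluconeogenic phosphatase, and MLS1, malate synthase of the glyoxylate cycle, fell to -4.87 and -0.92 at 4 h, against -3.55 and 0.42 at 2 h, and were the only 2 of 21 in their list. Of 19 tricarboxylic acid cycle genes IDP1 fell, and of 33 respiratory genes QCR10 fell, by 1.58 and 1.08. Of 25 peroxisome and fatty acid genes, ANT1, FAA2 and CTA1 fell by 1.25 to 1.73. TPS2 and TSL1, of trehalose synthesis, fell by 1.08 and 1.05 among 15 storage carbohydrate genes. FBP1 was -0.37 and -0.43, QCR10 -0.55 and -0.70 and TSL1 -0.97 and -0.98 with equal median absolute deviations and quantile normalization, none called. The medians of the respiratory, peroxisome and storage carbohydrate lists were -0.10, 0.02 and 0.02, and with those scalings they were 0.18 and 0.07, -0.30 and -0.41, and -0.17 and -0.16.

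Hexose transporter genes split. HXT2 and HXT5 fell to -1.36 and -1.04 at 4 h, against 0.98 and 1.10 at 2 h. HXT14 rose to 3.64 at 4 h against 1.21 at 2 h and reached 8.48 in the library titled 8 h, after 2.92 at 1 h. The other 14 of the 17 measured were not called.

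Some large lists had few or no called members. Of 129 cytosolic ribosomal protein genes, 1 fell, RPS4A, and 109 had differences below 0. The list's median difference of -0.38 became 0.27 with equal median absolute deviations and 0.04 with quantile normalization. Of 65 ribosome biogenesis genes KRR1 rose, and of 64 mitochondrial ribosomal protein genes MRPS17 rose. None of 22 autophagy and vacuolar protease genes was called, although ATG8, the membrane-conjugated autophagy protein, was 3.89 at 4 h against 2.89 at 2 h, a difference of 0.999. The autophagy list's median of 0.05 was -0.12 with equal median absolute deviations and -0.14 with quantile normalization. None of 20 mating genes was called, 13 had differences below 0 and their median difference was -0.05. The highest difference among them was 0.84, for AGA2, an agglutinin subunit of mating cells, which read 2.10, 3.11 and 2.94 at 2, 3 and 4 h. Of the genes of dividing cells, CLN1 was -0.47 at 4 h against 0.13 at 2 h and MCD1, the mitotic cohesin, was -0.77 at 4 h against -1.30 at 2 h, neither called. CLN2 lacked a 2 h value. A ratio to 0 h gives no level, so whether such markers were absent cannot be read from these values, and the part of other cells in any result was not tested.

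The lists held 81 of the 202 higher ORFs and 61 of the 205 lower ones. Among the higher ORFs outside them, LDS1 and LDS2, lipid-droplet proteins of the spore wall, were 5.98 and 7.14 at 4 h, against 1.38 and 3.02 at 2 h. RRT5, HIM1, TEP1 and ECM23 differed by 3.18 to 3.91. Of the 202, 33 had no gene symbol, and several of these were among the largest. YDL186W was 2.65 at 4 h against -1.82 at 2 h. YDR042C was 4.19 at 4 h against 0.03 at 2 h, and YJL043W was 1.67 at 4 h against -1.60 at 2 h. YPR078C and YPR077C, with adjacent systematic numbers, gained 4.49 and 3.26. YPR078C gained in both hours, whereas YPR077C gained 0.37 in the first and 2.89 in the second.

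Among the lower ORFs outside the lists, SNZ1 and SNO1, a divergent gene pair for vitamin B6 synthesis in starved cells, were 2.00 and 1.83 at 4 h, against 4.50 and 4.29 at 2 h. The other SNZ genes, looked up after the values were seen, differed by 0.03 and -0.02 and were not called. CPS1, a vacuolar carboxypeptidase, was -0.24 at 4 h against 2.14 at 2 h. VHT1, the biotin transporter, was -0.42 at 4 h against 1.80 at 2 h, and PHO89, a phosphate transporter, was 0.27 at 4 h against 2.19 at 2 h. ALK1, a protein kinase of the haspin family, was -1.51 at 4 h against 0.74 at 2 h. PMA1, the plasma membrane proton pump, read -0.65, -2.35 and -2.89 at 2, 3 and 4 h.

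Several further families were looked up in full after the values were seen, and their counts are a description. Of the 7 septin genes, 5 rose, SPR3 and SPR28 with CDC10, CDC3 and CDC11 at 1.36, 1.20 and 1.01. Of 12 anaphase-promoting complex genes 11 had positive differences, and CDC23 and CDC26 rose by 1.45 and 1.34. All 4 genes of the plasma membrane proton pump fell, PMA1, PMA2 and the small subunits PMP1 and PMP2, by 1.40 to 2.24. Whether the probes separate PMA1 from PMA2, or PMP1 from PMP2, was not checked, so these may not be 4 separate signals. Of 6 genes of the eisosome, a membrane furrow, SUR7, FMP45, LSP1 and PIL1 fell. Of 24 ergosterol genes 5 fell, led by ERG3 at -1.74 and ERG1 at -1.35, and of 11 purine synthesis genes ADE3 and ADE17 fell, by 1.45 and 1.36. CDC3, CDC11, CDC23, FMP45, ERG1 and ADE17 were among the genes no longer called with equal median absolute deviations.

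With gene order taken from RefSeq, 190 of the higher ORFs could be placed and 24 of them lay beside another higher ORF, in 12 pairs of which 6 were divergent. That is 12.6%, beside 350 of all 5255 placed ORFs (6.66%) that had a higher ORF as neighbour, a difference that was not tested. SPS2 and SPS1, CDA1 and CDA2, SSP1 and PFS1, SPO13 and MIP6, NUP157 and MAM1 and 3 histone pairs were among these. JIP3 and MID2 overlap by 371 bases on opposite strands, and their signals may not be separable. Of 195 placed lower ORFs, 22 lay beside another (11.3%, beside 6.64% of all placed ORFs), including the run DCG1, DAL7 and DAL3 and the run GDH3, BDH2 and BDH1. In 8 pairs the neighbours differed in opposite directions, such as NRS1 at -2.19 beside OSW2 at 1.93. RIM4, ECM23, PHO89, MIP6, PFS1, JIP3, MID2, NUP157, DCG1, BDH2 and BDH1 were named after their values were seen.

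A few differences did not follow a gradual course. PXR1 differed by 2.66, but it read -3.32 at 2 h and between -1.25 and -0.59 in the other 6 libraries. YLR400W read -2.52 at 2 h and between -0.57 and -0.01 in the other 5 with a value. Both differences rest on the 2 h library alone, and neither passed the test. CTR3, a copper transporter, read 1.36, 1.44 and -0.80 at 2, 3 and 4 h and stayed low afterwards. CWP1, YML119W, IRC18, HYM1 and YGL230C resembled CDC5, with no gain by 3 h, a gain by 4 h of 1.27 to 1.78 over 2 h and higher values at 5 h.

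Membership near the thresholds was a matter of small amounts. MCO32, PRE9 and IME2 lay just inside 1 at 1.009, 1.008 and 1.007, and FHN1, ATG8 and AIP5 just outside at 0.999, 0.999 and 0.997. TPP1, YJL152W and CFF1 lay just inside -1 at -1.008, -1.006 and -1.003, and DSC2, YPS1 and ILS1 just outside at -0.998, -0.997 and -0.996.

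The libraries at 1 h and 5 h, which enter neither the difference nor the line, lie on either side of the interval and so span it. The 5 h minus 1 h difference was 1 or more in 11.8% of 5608 ORFs and -1 or less in 12.3%. Of the 194 higher ORFs with both values, 169 were at 1 or more and 192 above 0, with a median of 2.68. Of 202 lower ORFs, 172 were at -1 or less and 192 below 0, with a median of -1.99. Of all 5537 compared ORFs with both values, 2733 were above 0 and 2804 below. Neighbouring libraries are alike, with a correlation across ORFs of 0.854 between 1 h and 2 h and 0.927 between 4 h and 5 h. The selection therefore favoured the same direction here, and these counts are a description. They do not show that a change went on after 4 h, since ENO1, for one, was -6.16 at 5 h and -6.24 at 4 h. GAT4, a GATA-type zinc finger gene, fell to 0.92 at 4 h against 2.94 at 2 h but read 3.68, 5.53 and 7.24 at 5, 6 and 8 h.

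**Figure D5:**
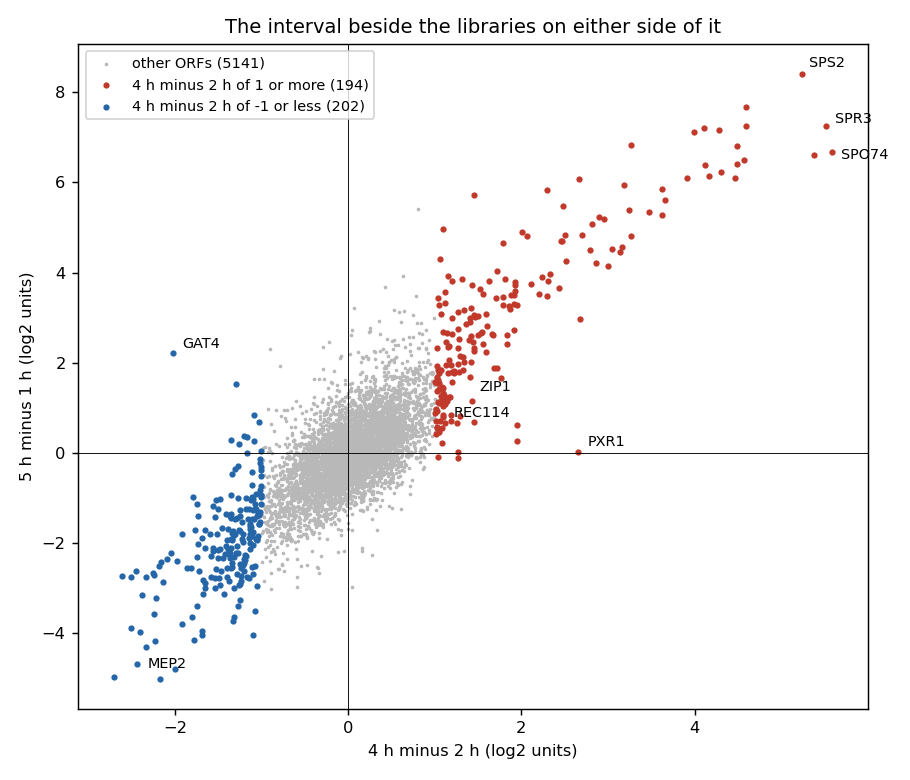
The 4 h minus 2 h difference (horizontal, log2 units) against the 5 h minus 1 h difference (vertical, log2 units), 1 point per ORF with all values. SPS2, SPO74 and SPR3 lie at the upper right, MEP2 at the lower left, GAT4 at the upper left, and PXR1 close to 0 on the vertical axis.

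Over the whole course the higher ORFs had medians of 0.53, 0.49, 1.23, 2.30, 3.63, 4.06 and 4.10 in the 1, 2, 3, 4, 5, 6 and 8 h libraries. Of the 190 with all 7 values, 98 were highest in the library titled 8 h, 45 at 6 h, 15 at 5 h and 31 at 4 h. Over all 5349 ORFs with 7 values these counts were 1581, 478, 359 and 705, a comparison that was not tested. An ORF with a difference of 1 or more cannot be highest at 2 h. Higher ORFs with a 4 h peak included REC114, ZIP1, MSH5, MEI5 and SPO13. At 2 h the higher ORFs were lower than at 1 h in 98 of 196 cases, beside 3087 of 5620 among all ORFs. Of the 202, 52 stood below the 0 h level at 2 h and above it at 4 h, beside 456 of all 5726. A difference of 1 or more favours such a crossing by itself.

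The lower ORFs had medians of 0.38, 0.18, -0.65, -1.23, -1.58, -1.52 and -1.39 in the same libraries. They divided by where they started, with 88 above the 0 h level at 2 h and below it at 4 h, 88 below it at both times and 29 above it at both. MET6 and CPS1 are of the first kind, ADH1 and PMA1 of the second and MEP2, DAL5 and SNZ1 of the third. Over all 5726 ORFs these kinds held 457, 2300 and 2513, in that order. A difference of -1 or less favours the first kind by itself. Of the 196 lower ORFs with all 7 values, 129 were highest at 1 h, beside 1265 of 5349 among all ORFs. An ORF with a difference of -1 or less cannot be highest at 4 h. At 2 h 145 of the 205 were lower than at 1 h, beside 3087 of 5620 among all ORFs.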

How the data were processed

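Two-colour arrays were hybridised with poly(A)+ cDNA of each time point in Cy5 and of a meiotic mix in Cy3, per the labels' protocols. The deposited values are log2 ratios that the authors normalised to the 0 h ratio, per the series' design text. Spot intensities were not used here, so signal over background is unknown. Whether probes separate gene pairs such as SAM1 and SAM2 or HSP82 and HSC82 was not checked. Scanner, background correction, array normalisation and build: not given in the sources used here. ORF names were matched to RefSeq (R64) for symbols and gene order: 5655 of 6141 matched and 5130 had a symbol.

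From these values the 4 h minus 2 h difference was computed, and limma 3.58.1 in R 4.3.3 fitted a line over the 2, 3 and 4 h libraries with eBayes, leaving 1 residual degree of freedom per ORF and 5.48 prior degrees. Successive samples of a course are not independent replicates. Tested on simulated data for this comparison over 5726 ORFs, a true difference of 1 passed the adjusted p in 41 of 100 ORFs, a difference of 2 in 99 of 100, and no difference in 12 of 5526. The simulation put independent noise on exact straight lines, with variances drawn from the fitted prior. Far fewer ORFs changed in it than the 298 rises and 293 falls that passed the adjusted p in the data. Whether its rates hold for the data was not tested.

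Named genes are the 25 highest and 25 lowest differences, the 10 largest each way whose 3 h value lies outside, the 3 ORFs on each side of each threshold, the members of each list past 1 or -1 and the 5 at each end, and a fixed set of meiotic regulators and cyclins. Other names are said to be chosen after their values were seen. The members and lists were chosen with earlier results of these data known. Promoter motifs were planned and not run, since promoter sequence was not analysed here. Alternatives covered the scaling of the libraries, the ORFs included, the size threshold, the libraries at the ends of the interval and the eBayes settings. Some items of the series are not reported here.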

Additional observations from a re-analysis of the deposited data

How the results depend on the processing

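No paired analysis was possible because each time point had 1 library. For the same reason no replicate could be left out, and without the 3 h library no residual degree of freedom is left. Chosen after seeing the data, 4 h minus 1 h gave 527 ORFs at 1 or more and 548 at -1 or less, and 5 h minus 2 h gave 490 and 440. The 3 h minus 1 h difference gave 311 and 351, and that of 5 h minus 1 h gave 662 and 688. A size of 0.5 gave 902 and 776, a size of 2 gave 55 and 23, and the adjusted p alone (limma) called 298 rises and 293 falls. Quantile normalization gave 126 at 1 or more. Every other count stayed within 1.5 times the 202 and 205 past the thresholds and the 184 and 188 called. Of those 184 rises and 188 falls, limma also called 107 and 138 with equal median absolute deviations, 105 and 147 with quantile normalization, 118 and 110 with a line over 1 to 5 h, and 180 and 188 with centred medians. With equal median absolute deviations IME2 was -0.08 and MEI5 -0.11, and with quantile normalization IME2 was -0.10, MEI5 -0.15 and ENO1 0.00. Under 3 h minus 1 h the sign turned for SMA1 (-0.01), BAT2 (-0.03), HXT14 (-1.14), YJL043W (-0.03), OSW2 (-0.29) and GAT4 (1.00), and under 5 h minus 1 h for GAT4 (2.22). The cause was not tested. Of 201 named genes, and besides those just given, 56 called ones were no longer called with equal median absolute deviations and 51 with quantile normalization. Signal over background is unknown, and promoter motif counts were not run.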
